A study of Drosophila melanogaster with 6 samples.

Results

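The genes described here encode subunits of respiratory complex I, the NADH dehydrogenase of the mitochondrial inner membrane, in Kc-167 cells, an embryonic Drosophila melanogaster line with features of haemocytes. The members are all genes with a symbol that starts with ND- and a probe set listed for that gene alone, which gave 31 of the 10844 genes with such a probe set. A gene with several probe sets is represented by the one whose mean over the 6 arrays was highest. Of the 31 members, 25 were tested, since their log2 expression value was above 4 on at least 3 arrays, and all 25 were above 4 on all 6 arrays.

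RNA was measured on 6 single-channel expression arrays, 3 from cells given control double-stranded RNA against beta-lactamase, which is a bacterial gene without a fly counterpart, and 3 from cells given double-stranded RNA against Enigma. All cells received 20 µg of double-stranded RNA for 1 hour without serum and were harvested after 5 days, so the groups differ in the RNA target. The titles number the arrays of each group 1 to 3, and the control array and the Enigma RNAi array with the same number are called a pair. No label says that the replicates are separate cultures, so the spread behind each p-value may be a technical one. Precision is limited by the number of arrays throughout.

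Complex I takes electrons from NADH, passes them through flavin and iron-sulfur clusters to ubiquinone, and pumps protons across the inner membrane. Its matrix arm holds the N module, which oxidises NADH, and the Q module, which reduces ubiquinone, while the membrane arm has a proximal and a distal part. Core subunits carry the catalytic groups and the proton channels, and accessory subunits surround and stabilise them. Subunits are assigned to these modules here by their human counterparts. Enigma, gene CG9006 with the current symbol Egm, encodes a mitochondrial relative of the acyl-CoA dehydrogenases. In human cells ACAD9, a protein of that family, is an assembly factor of complex I.

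Tested complex I genes had slightly lower means after Enigma RNAi, and no single gene passed the test. Of the 25 tested members, 24 had a lower mean after Enigma RNAi, against 58.3% of all 6975 tested probe sets, and 16 were lower in all 3 pairs, or 64%, against 25.2% of all. None was higher in all 3 pairs. The members had a median level of 8.25, beside 6.12 over all genes tested. Of probe sets with a mean log2 of at least 6, 31.6% were lower in all 3 pairs. The median log2 difference of the members, Enigma RNAi minus control RNAi, was -0.14, beside -0.031 over the 5757 genes tested and it varied with the arrays used. Without Enigma 2 the median of the members was -0.026, beside -0.032 over all genes tested, and 16 of 25 members had a lower mean. Without control 1 it was -0.089, beside -0.041 over all genes, with 20 of 25 members lower. Without Enigma 1 it was -0.25, beside -0.032, and without control 2 it was -0.24, beside -0.029. With pair 1 left out, the median was -0.19, beside -0.041 over all genes, with 24 of 25 members lower. Dropping pair 2 gave -0.11, beside -0.028, with 22 members lower, and dropping pair 3 gave -0.14, beside -0.019, with 25 lower. The share of all probe sets with a lower mean was not counted in these settings. With each array left out in turn, the difference of 22 of the 25 single members moved by a factor over 1.5 or crossed 0, and the other 3 were ND-75, ND-B12 and ND-B14.5A.

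By number, the median difference over the 25 members was -0.080 in pair 1, -0.20 in pair 2 and -0.13 in pair 3, beside 0.0029, -0.030 and -0.048 over all genes tested. In limma, 0 of 25 members passed an adjusted p of 0.05 with Benjamini-Hochberg adjustment, the background being 0% of all tested probe sets, and 0 had an unadjusted p under 0.05, against 4.26% of all. With the replicate number as a block, 0 of 25 members passed, against 0.631% of all tested probe sets, of which 44 passed. In that fit 6 of 25 members, or 24%, had an unadjusted p under 0.05 with a lower mean, against 12.4% of all. Adjusted p was 0.999 for each tested member without the block, and lay between 0.0732 for ND-MWFE and 0.975 for ND-B18 with it.

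**Figure D1:**
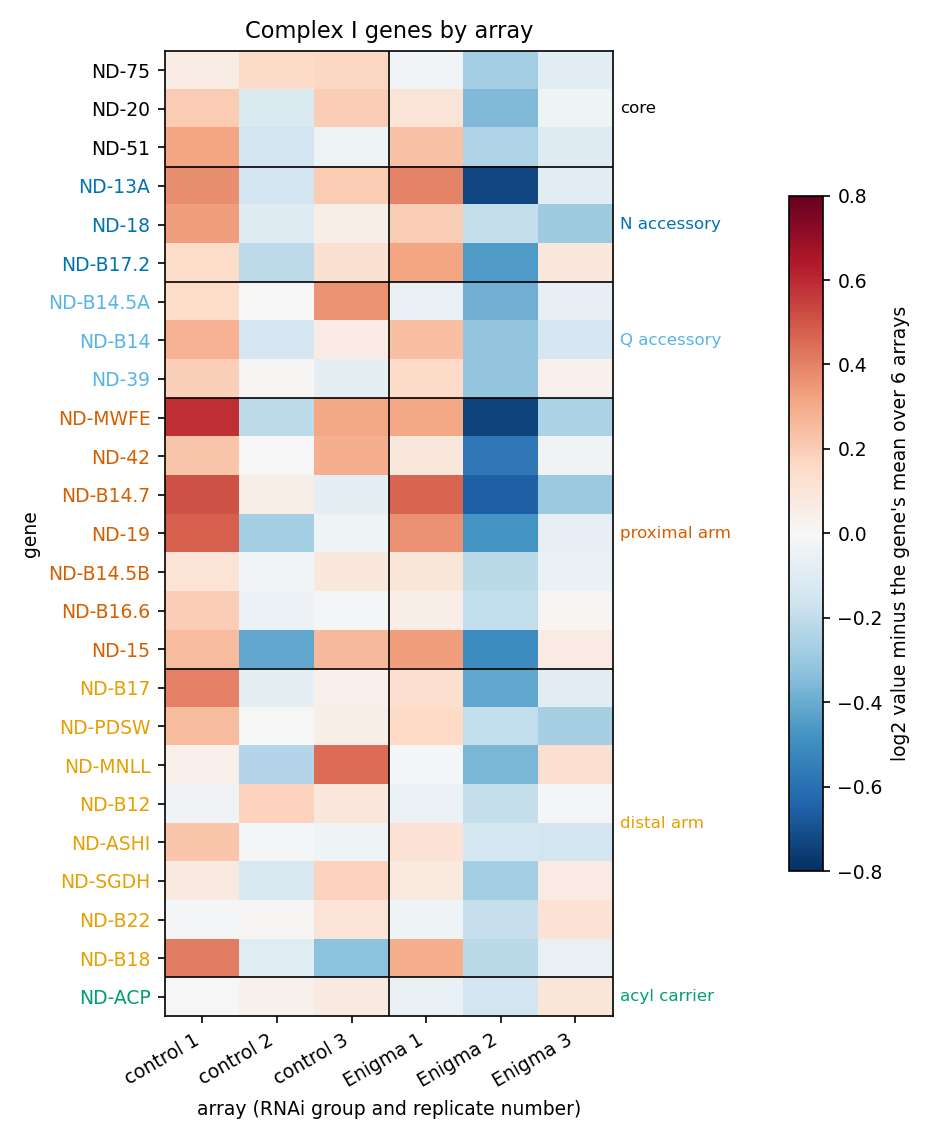
Log2 expression value of each of the 25 tested complex I genes on each of the 6 arrays, as the difference from that gene's mean over the arrays (colour scale in log2 units). Rows are ordered by module and columns by RNAi group and replicate number. The array Enigma 2 is the lowest for 21 of the 25 genes, against 26.7% of all tested probe sets, and control 1 is the highest for 14, against 17.7% of all. Over the tested genes of respiratory complexes II to V these shares are 45.5% and 48.5%. Over those of mitochondrial ribosomal proteins they are 54.7% and 15.6%.

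The target of the RNAi was lower on its arrays. Enigma was at 6.00, 6.41 and 6.71 in controls and at 3.24, 3.51 and 4.21 after Enigma RNAi, without overlap, and 2 of the latter were under 4 (limma, difference -2.72, adjusted p = 0.283 without the block and 0.000118 with it). With values under 4 set to 4 the difference was -2.31, at least 4.95-fold lower. An exact permutation test, two-sided, gave p = 0.1, and 3 arrays against 3 can give no smaller value. The whole-array spread was narrowest on Enigma 2, with an SD over probe sets of 2.20 against 2.27 to 2.33 on the other 5 arrays, and its 75th percentile was 5.98 against 6.09 to 6.16. After quantile normalization, which gives all arrays the same spread, the members' median difference was -0.11 and 16 of 25 were lower in all 3 pairs, against 20.6% of all tested probe sets. The 3' minus 5' signal of the eIF4A control probe sets, which reflects RNA quality, lay between 1.22 and 1.49 in controls and between 1.52 and 1.95 after Enigma RNAi. Its part in the differences of complex I genes was not tested. Of 9 plasmatocyte markers 6 passed the filter, Hml, Pxn, srp, Col4a1, vkg and Ppn, while NimC1, crq and eater did not. The summed level of all 9, on the log2 scale, was 11.3 to 12.5 in controls and 11.4 to 12.3 after Enigma RNAi. Of the markers on the array, 1 of 4 passed for crystal cells (lz) and 1 of 4 for lamellocytes (mthl4). For muscle 1 of 2 passed (Mlc2), for neurons 2 of 3 (elav and brp), for fat body 0 of 3 and for testis 0 of 4. In bulk RNA, fewer cells of a type and less RNA per cell cannot be told apart.

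The core subunits of the matrix arm that could be read were ND-75, ND-51 and ND-20. ND-75 (CG2286), the counterpart of human NDUFS1, is the large iron-sulfur subunit of the N module. It was at 8.21, 8.30 and 8.32 in controls 1 to 3 and at 8.13, 7.88 and 8.07 after Enigma RNAi. Every control value of ND-75 was above every Enigma RNAi value, and Enigma 2 was the lowest array. Its difference was -0.25 ± 0.11 (SE), with a 95% interval from -0.52 to 0.018 (limma, adjusted p = 0.999, and 0.243 with the block).

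ND-20 (CG9172), the counterpart of NDUFS7, carries the iron-sulfur cluster that hands electrons to ubiquinone. It was at 8.95, 8.63 and 8.95 in controls and at 8.86, 8.40 and 8.72 after Enigma RNAi. The groups overlapped, since control 2 was below Enigma 1 and Enigma 3, but each pair had the lower value after Enigma RNAi. The difference was -0.19 ± 0.16 (SE), and it was -0.29 without control 2 and -0.056 without Enigma 2. ND-51 (CG9140), the counterpart of NDUFV1, binds NADH and the flavin, and was at 8.72, 8.25 and 8.36 in controls and at 8.64, 8.15 and 8.30 after Enigma RNAi. Its 3 pairs were all lower, by small and similar amounts of -0.083, -0.096 and -0.062, and the groups overlapped widely. The difference of ND-51 was -0.080 ± 0.18 (SE), and it was 0.058 without control 1 and 0.025 without Enigma 2.

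Of the 3 tested accessory subunits of the N module, 1 was lower in all 3 pairs. ND-13A (CG8680), the counterpart of NDUFS6, a zinc-binding subunit in humans, was at 7.74, 7.22 and 7.57 in controls and at 7.76, 6.64 and 7.29 after Enigma RNAi. The pair numbered 1 was level and the other pairs were lower, with Enigma 2 far below the rest, and without Enigma 2 the difference of ND-13A went from -0.28 to 0.015. ND-18 (CG12203), the counterpart of NDUFS4, had a difference of -0.19 and was lower in all 3 pairs, and it was -0.33 without Enigma 1 and -0.064 without control 1. ND-B17.2, the counterpart of NDUFA12, had a difference of -0.038, and it was higher in pair 1, at 0.17, and lower in pair 2, at -0.24.

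In the Q module, ND-B14.5A (CG3621), the counterpart of NDUFA7, was at 7.86, 7.71 and 8.07 in controls and at 7.66, 7.33 and 7.65 after Enigma RNAi. Its groups did not overlap, and the pairs were lower by values from -0.20 in pair 1 to -0.42 in pair 3. The difference was -0.34 ± 0.15 (SE), with a 95% interval from -0.69 to 0.017 (limma, adjusted p = 0.999, and 0.121 with the block), and it stayed between -0.23 and -0.42 when each array was left out in turn. ND-B14.5A and ND-75 were the only tested members whose groups did not overlap, 2 of 25 or 8%, against 6.16% of all tested probe sets with the lower values after Enigma RNAi. Of the other Q module accessory genes, ND-B14, the counterpart of NDUFA6, had a difference of -0.14 with 3 pairs lower, and it lay between -0.30 (no Enigma 1) and -0.016 (no Enigma 2) with 1 array left out. ND-39, the counterpart of NDUFA9, had a difference of -0.086 with 2 pairs lower.

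The proximal part of the membrane arm held the member with the largest difference. ND-MWFE (CG34439), the counterpart of NDUFA1, a small subunit with a single membrane span in mammals, was at 10.07, 9.27 and 9.79 in controls and at 9.79, 8.74 and 9.23 after Enigma RNAi. Each pair was lower, yet Enigma 1 was as high as control 3 and lay above control 2, so the groups overlapped. The difference was -0.46 ± 0.31 (SE), with a 95% interval from -1.20 to 0.28. In the fit with the block the standard error of ND-MWFE was 0.10 and the adjusted p was 0.0732. That fit without replicate 1 is the 1 setting in which a member passed, and the member was ND-MWFE. This was 1 of 25 members, beside 586 of all 6975 tested probe sets, so a pass there was not particular to complex I. The difference of ND-MWFE was -0.20 without Enigma 2 and -0.73 without Enigma 1.

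ND-42 (CG6343), the counterpart of NDUFA10, was at 9.09, 8.87 and 9.16 in controls and at 8.95, 8.29 and 8.84 after Enigma RNAi. It was lower in all 3 pairs, most in pair 2 at -0.58, and only Enigma 1 lay above a control value. The difference was -0.34 ± 0.19 (SE), with -0.47 without Enigma 1 and -0.14 without Enigma 2. ND-B14.7 (CG9350), the counterpart of NDUFA11, was at 7.48, 7.01 and 6.89 in controls and at 7.43, 6.31 and 6.67 after Enigma RNAi. Its difference of -0.32 came largely from pair 2, at -0.70, beside -0.045 and -0.22 in pairs 1 and 3, and was -0.64 without Enigma 1 and -0.077 without Enigma 2.

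The other proximal genes had smaller differences. ND-19, the counterpart of NDUFA8, had -0.12, ND-B14.5B, the counterpart of NDUFC2, had -0.11, and each was lower in 3 pairs. ND-B14.5B was -0.19 without Enigma 1 and -0.032 without Enigma 2. ND-B16.6, the counterpart of NDUFA13, had -0.087 and ND-15, the counterpart of NDUFS5, had -0.067, and each was lower in 2 pairs. ND-B16.6 was -0.14 without Enigma 1 and -0.0094 without Enigma 2. The median difference over the 7 proximal genes was -0.12, and 5 of the 7 were lower in all 3 pairs.

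In the distal part of the membrane arm, ND-B17 (CG13240), the counterpart of NDUFB6, was at 7.85, 7.37 and 7.49 in controls and at 7.58, 7.04 and 7.36 after Enigma RNAi. ND-PDSW (CG8844), the counterpart of NDUFB10, was at 7.54, 7.29 and 7.34 in controls and at 7.45, 7.10 and 7.03 after Enigma RNAi. Both were lower in every pair with overlapping groups, with differences of -0.24 for ND-B17 and -0.20 for ND-PDSW. With each array left out in turn, ND-B17 lay between -0.37 (no Enigma 1) and -0.099 (no Enigma 2), and ND-PDSW between -0.33 (no Enigma 1) and -0.12 (no Enigma 3). ND-MNLL had -0.17 and ND-B12 had -0.16, both lower in 3 pairs, and ND-ASHI had -0.11 with nearly equal pairs of -0.11, -0.13 and -0.11. The difference of ND-ASHI was -0.20 without Enigma 1 and -0.032 without control 1. ND-SGDH at -0.084 and ND-B22 at -0.073 were lower in 2 pairs. ND-B18, the counterpart of NDUFB7, was the 1 tested member with a higher mean, at 0.011, with -0.12, -0.12 and 0.27 in the pairs. ND-MNLL was read by a further probe set, which differed by -0.024 and was lower in 2 pairs, so the probe sets of ND-MNLL did not give the same size.

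ND-ACP, the mitochondrial acyl carrier protein, which also serves fatty acid and lipoate synthesis in the matrix, had a difference of -0.072, with a control SD of 0.033 and an Enigma RNAi SD of 0.13. It was -0.14 without Enigma 3 and -0.014 without Enigma 2. Across modules the medians were close: -0.19 over 3 core genes, -0.19 over 3 N module accessory genes, -0.14 over 3 of the Q module, -0.12 over 7 proximal and -0.14 over 8 distal genes. Differences between modules were not tested.

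**Figure D2:**
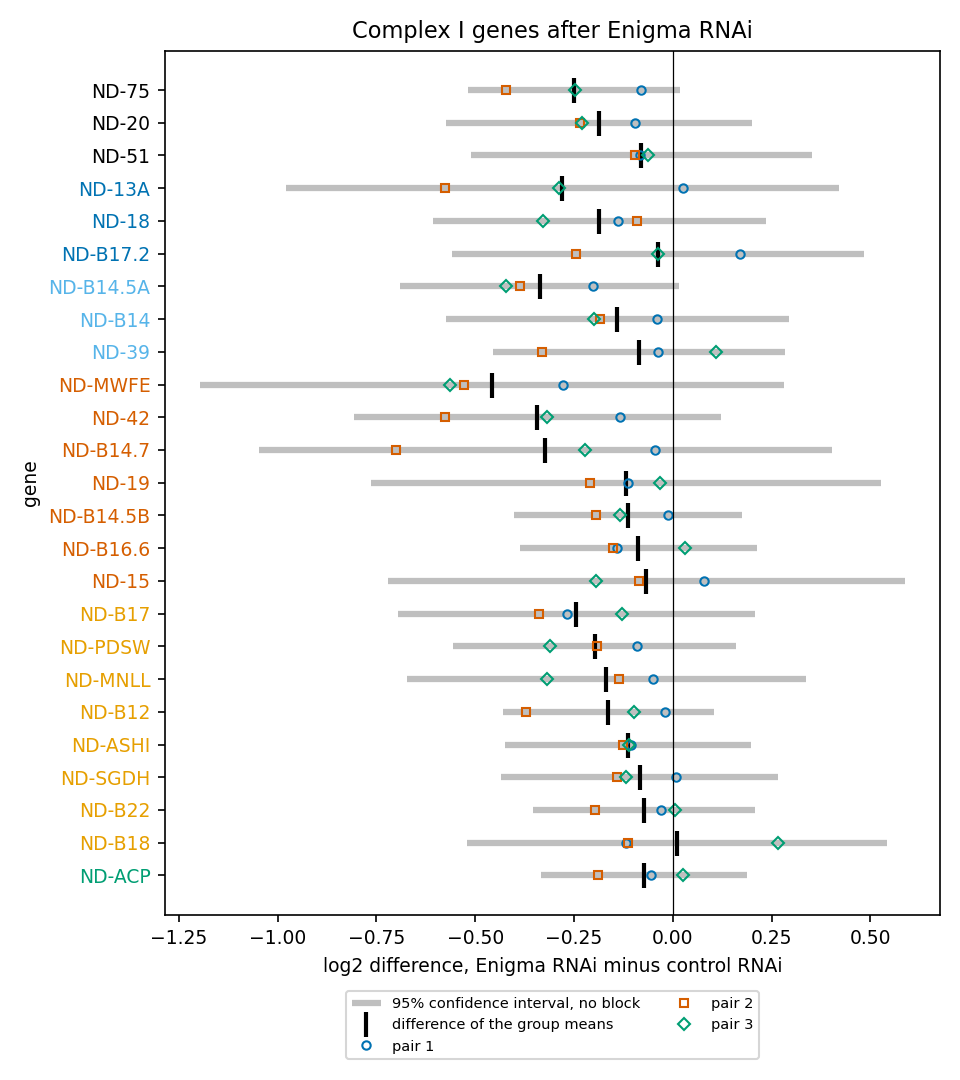
Log2 difference, Enigma RNAi minus control RNAi, for the 25 tested complex I genes grouped by module, with the difference of the group means (black bars), its 95% confidence interval from limma without the block (grey) and the difference in each of the 3 pairs (symbols). All 25 of these intervals, which do not use the pairing, include 0, and pair 2 lies furthest left for 17 of the genes. In the limma fit with the block, 6 of the 25 were lower with an unadjusted p under 0.05, against 12.4% of all tested probe sets. None passed there after adjustment.

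**Figure D3:**
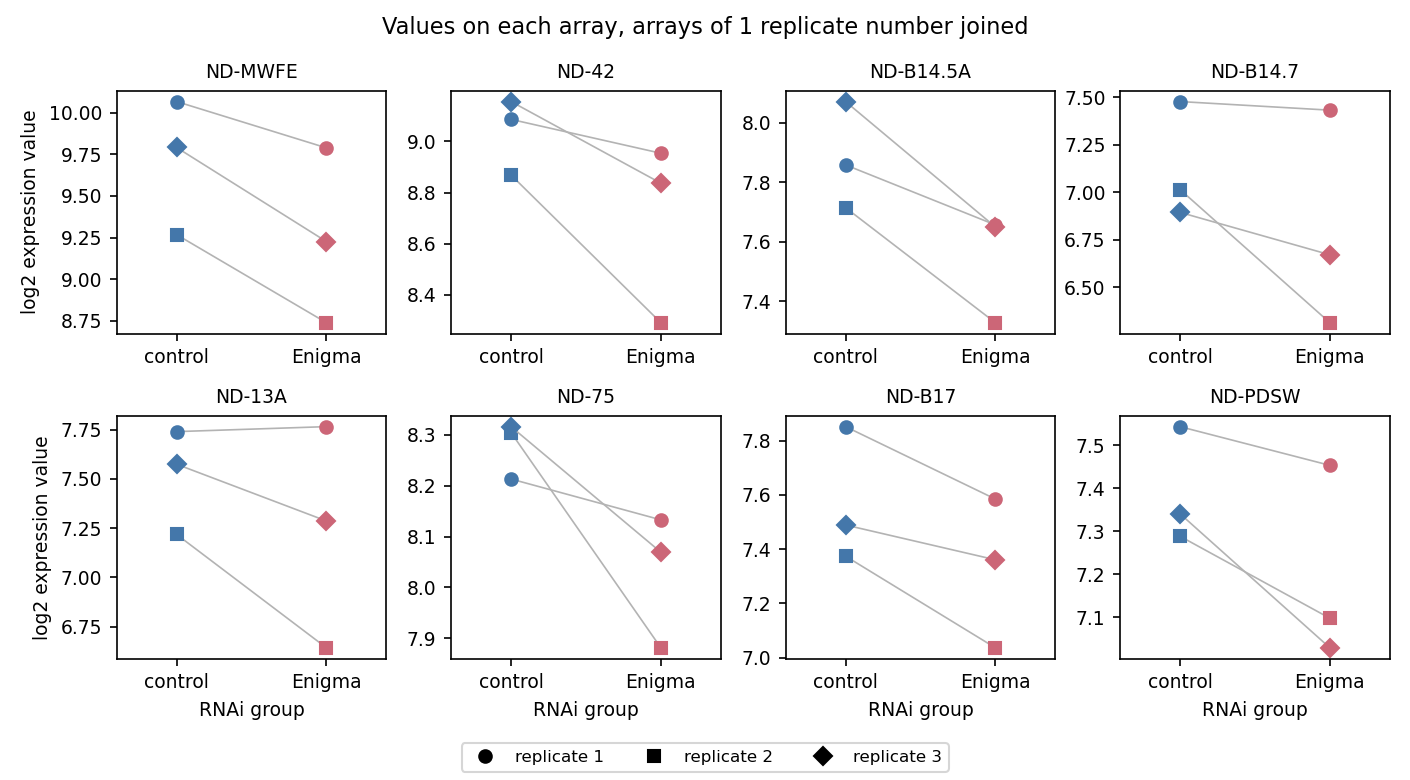
Log2 expression value of the 8 complex I genes with the largest differences on each array, control RNAi at left and Enigma RNAi at right, with grey lines that join arrays of 1 replicate number and a separate vertical scale for each gene. All lines run downward except that of pair 1 for ND-13A, and the groups overlap for every gene drawn except ND-B14.5A and ND-75.

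The 6 members that did not reach the filter lay between 1.95 and 3.39 on all arrays. They were the paralogues ND-51L1, ND-51L2, ND-20L, ND-24L and ND-B14.5AL, and ND-B8, the counterpart of NDUFA2. ND-B8 was at 1.95, 2.05 and 2.00 in controls and at 1.97, 2.13 and 1.99 after Enigma RNAi, under the filter although it encodes a subunit of the standard complex. Of 40 RefSeq genes with an ND- symbol, 9 had no probe set listed for them alone: ND-13B, ND-23, ND-24, ND-30, ND-49, ND-49L, ND-AGGG, ND-B15 and ND-MLRQ. The core subunits ND-23, ND-24, ND-30 and ND-49 are among them. Of the mitochondrially encoded subunits, 0 had a probe set of their own in the annotation, so the catalytic core was read through 3 genes.

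Assembly factors, which build the complex and are not part of it, are a small list added to the subunits. ECSIT, a factor of the membrane arm in human cells, was at 4.38, 4.24 and 4.26 in controls and at 4.14, 3.88 and 4.16 after Enigma RNAi. It was lower in all 3 pairs without overlap, close to the filter of 4, with a difference of -0.23 (-0.14 without Enigma 2) that did not pass (limma, adjusted p = 0.999, and 0.245 with the block). The other tested factors had differences close to 0: sicily, the counterpart of NDUFAF6, differed by 0.011, and Nubpl, an iron-sulfur delivery factor in humans, by 0.034. CG5569 and CG11722, with the RefSeq synonyms dNDUFAF3 and dNDUFAF4, differed by 0.018 and 0.0077. CIA30, the counterpart of NDUFAF1, stayed under the filter on all arrays, at 2.94 to 3.70.

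More complex I genes passed the test for the replicate number, 11 of 25, than that for the treatment, 0 of 25 without or with the block. The same order held over all tested probe sets. Of these, 23.5% passed for the replicate number, and 0% without the block and 0.631% with it for the treatment. The mean over both groups was lowest in replicate 2 for 21 of 25 members, or 84%, against 32.9% of all tested probe sets. It was highest in replicate 1 for 18, or 72%, against 33.6% of all. Replicate 1 exceeded replicate 2 by a median of 0.39 over the members and by -0.0049 over all genes tested, and replicate 3 exceeded replicate 2 by 0.19 and by 0.0091. These backgrounds are not matched for level, since the members had a median level of 8.25 against 6.12 over all genes tested. The whole-array SD of controls and Enigma RNAi was 2.33 and 2.32 in replicate 1, 2.27 and 2.20 in replicate 2, and 2.29 and 2.29 in replicate 3. The part of this spread in the gaps between replicates was not tested. In an F test for the replicate number next to the treatment, 11 of 25 members, or 44%, passed (limma, adjusted p under 0.05), against 23.5% of all tested probe sets. Among probe sets with a mean log2 of at least 6, the shares were 44% of members and 33.3% of all. After quantile normalization or cyclic loess 3 of 25 passed, ND-MWFE, ND-19 and ND-15, or 12%, against 13.7% and 14.6% of all. The count was 4 without replicate 1, or 16% against 13.4% of all, 3 without replicate 2, or 12% against 17.5%, and 11 without replicate 3, or 44% against 21.1%.

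The 3 members with the smallest p for the replicate number were proximal membrane arm genes. ND-MWFE was 0.92 higher in replicate 1 than in replicate 2 and 0.50 higher in replicate 3 than in replicate 2 (limma F test, adjusted p = 0.00823). ND-19 (CG3683) was at 8.68, 7.93 and 8.17 in controls and at 8.57, 7.72 and 8.13 after Enigma RNAi, with the same order of numbers in both groups. Replicate 1 of ND-19 exceeded replicate 2 by 0.80 (limma F test, adjusted p = 0.00951), beside a treatment difference of -0.12.

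ND-15 (CG11455) was at 7.41, 6.74 and 7.41 in controls and at 7.49, 6.65 and 7.22 after Enigma RNAi, so that replicate 2 stood apart from both others in each group. Its replicate 1 exceeded replicate 2 by 0.75 (limma F test, adjusted p = 0.0108). The other members that passed were ND-13A, ND-51, ND-B14, ND-B14.7, ND-B17, ND-B17.2, ND-B18 and ND-MNLL. ND-MNLL was highest in replicate 3, which exceeded replicate 2 by 0.59. ND-B18 was highest in replicate 1, by 0.50 over replicate 2, while its replicate 3 was at -0.036 from replicate 2. ND-75 differed little, at 0.080 and 0.0997 for replicates 1 and 3 over replicate 2 (adjusted p = 0.772), and ND-B12 at -0.032 and 0.043 (adjusted p = 0.879).

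By module, replicate 1 exceeded replicate 2 by a median of 0.75 over the proximal genes, 0.57 over the N module accessory genes, 0.39 over the core, 0.32 over the Q module accessory genes and 0.29 over the distal genes. These medians are a description of the 6 arrays, and the differences between modules were not tested.

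**Figure D4:**
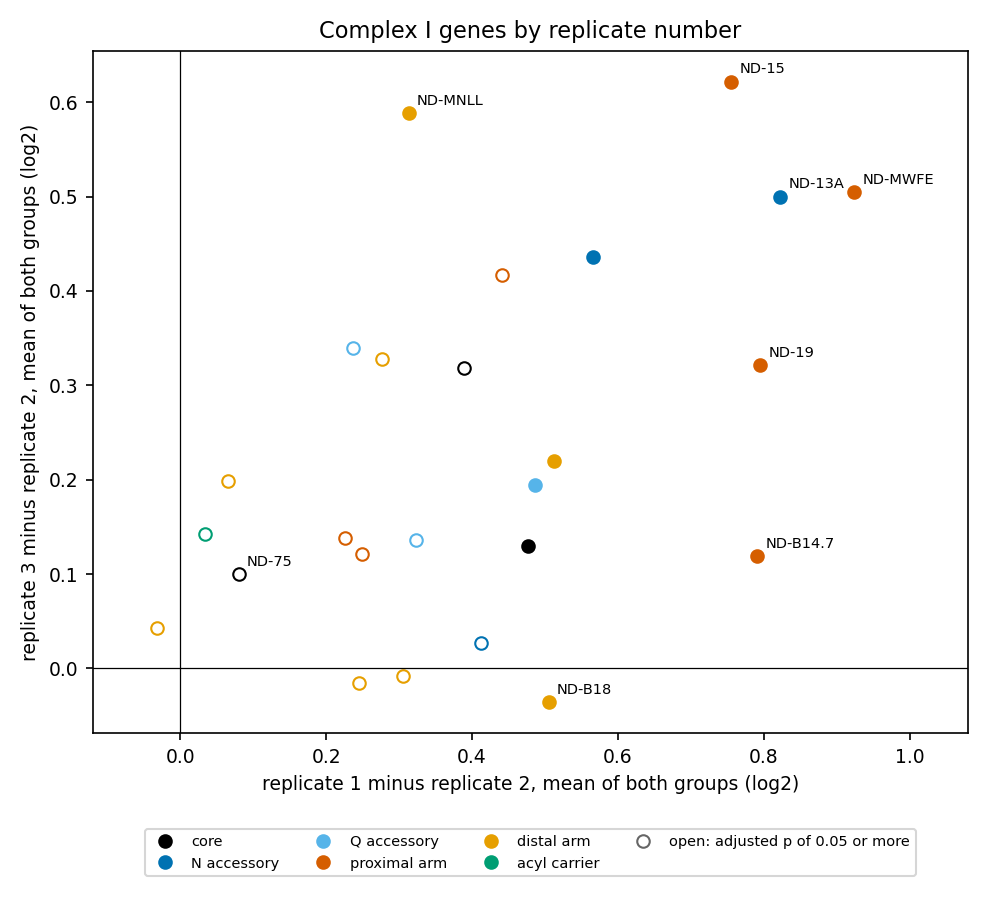
Mean log2 value of both groups in replicate 1 minus that in replicate 2 (horizontal) against replicate 3 minus replicate 2 (vertical) for the 25 tested complex I genes, coloured by module. Filled points passed the F test for the replicate number and open points did not; the proximal genes ND-MWFE, ND-19, ND-15 and ND-B14.7 lie furthest right with the N module gene ND-13A.

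Set beside the other respiratory complexes, complex I had the lowest median difference of the groups read here, and the difference was not tested. The medians were -0.093 over 3 genes of complex II, -0.050 over 7 of complex III, 0.0068 over 10 of complex IV and -0.083 over 13 of complex V, with -0.060 over these 33 together. Lower in all 3 pairs were 8 of the 33, or 24.2%, against 16 of the 25 complex I genes. The 33 include genes with paralogue symbols ending in L, Cyt-c1L, COX4L, COX7AL, ATPsynbetaL and ATPsynepsilonL. These lay between -0.31 for COX4L and 0.12 for COX7AL, while no complex I paralogue was tested. The 64 mitochondrial ribosomal protein genes had a median of -0.084, with 23 lower in all 3 pairs, or 35.9%, against 25.2% of all tested probe sets. In pair 1 the median was -0.075 over complexes II to V and -0.080 over complex I, in pair 2 they were -0.12 and -0.20, and in pair 3 they were 0.034 and -0.13. Complex II, at -0.17, and complex III, at -0.14, were lower than complex I in pair 1. Without replicate 3, the median of complex I was 0.0029 above that of complexes II to V. Replicate 1 exceeded replicate 2 by a median of 0.29 over complexes II to V, and 9 of these 33 genes, or 27.3%, passed the F test for the replicate number, against 23.5% of all tested probe sets. Replicate 1 was the highest for 26 of the 33, or 78.8%, so this trait was not particular to complex I. Replicate 2 was the lowest for 17, or 51.5%.

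**Figure D5:**
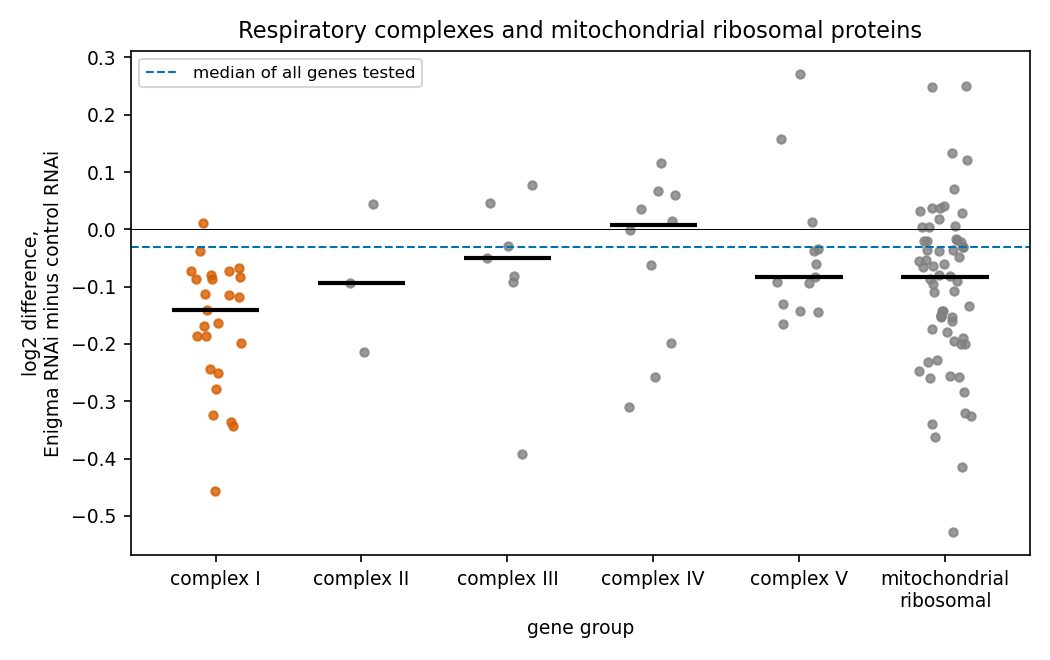
Log2 difference, Enigma RNAi minus control RNAi, of each tested gene of complexes I to V and of the mitochondrial ribosomal proteins (points, spread sideways at random), with the median of each group (black bars) and of all genes tested (dashed line). Complex I points lie between -0.46 and 0.011, and the other groups reach further above 0.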

How the data were processed

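The authors made the log2 expression values with GCRMA before deposit, per the submitters' processing notes, which name no version. This method corrects background, normalizes between arrays and summarises probes. The log2 scale is inferred from GCRMA and from values between -0.32 and 14.30, as the labels name no scale. No further scaling was applied. Per the labels, about 8 µg of total RNA per sample was labelled with biotin.

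Of 14010 probe sets, 44 Affymetrix controls were left out, and 6975 were tested, with a value above 4 on at least 3 of 6 arrays. GEO's platform annotation names 1 gene for 12444 probe sets, several genes for 327 and no gene here for 1239. By Entrez number 12394 of the 12444 matched RefSeq (Release 6 plus ISO1 MT), with 0 changed symbols. Coordinates and gene sequences were not used here.

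Treatments were compared with limma 3.58.1 (R 4.3.3; lmFit, eBayes), two-sided, without a block, with Benjamini-Hochberg adjustment over all tested probe sets. The replicate number was tested by an F test in a fit of treatment and number. Both were run on simulated data with known changes. Of the treatment fit without a block only a small bias was required there, not a share of the changes found. Same-numbered arrays deviated together from their group means (r over the tested probe sets of 0.80, 0.64 and 0.65 for numbers 1, 2 and 3), so the numbers pair the arrays, though no label names a shared batch. Alternatives were the replicate block (fixed or random), normalization, filters, probe set choice, a trended robust fit, and leaving out arrays or replicates.

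The members, lists and tests were chosen with earlier results of these data known. Values on all arrays were to be given for core subunits, the 8 largest differences, members past a threshold, the 3 smallest p for the replicate number and the tested assembly factors. Of the tested assembly factors only ECSIT has them here, and sicily, Nubpl, CG5569 and CG11722 have their differences alone. CG5569 and CG11722 were added to the assembly factors through their RefSeq synonyms.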

Additional observations from a re-analysis of the deposited data

How the results depend on the processing

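The count of complex I genes that passed between treatments was 0 in all alternatives but the fit with the replicate block without replicate 1, where it was 1. In that fit 586 of all 6975 tested probe sets passed. The median difference of the complex I genes kept its sign, at -0.11 after quantile normalization, -0.092 after cyclic loess, -0.11 with no filter and -0.12 with the mean of a gene's probe sets. With a mean log2 of at least 6 it was -0.14, or -0.080 relative to all genes tested. Leaving out 1 array gave -0.25 to -0.026, and, relative to all genes tested, -0.22 to 0.0066, the last without Enigma 2. With the replicate block and 1 replicate left out it was -0.19 to -0.11. The count lower in all 3 pairs was 16 after quantile normalization, against 20.6% of all probe sets, and 13 after cyclic loess, against 22.4%. It was 16 of 25 with a mean log2 of at least 6, against 31.6%, and 16 of 31 with no filter, against 13.6%. The median of complex I minus that of complexes II to V was -0.080, ranged from -0.17 to -0.040 with 1 array left out, and was 0.0029 with the replicate block without replicate 3.

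The count by replicate number was 3 after quantile normalization and 3 after cyclic loess, or 12% against 13.7% and 14.6% of all probe sets. It was 7 of 31 with no filter, or 22.6% against 9.55%, and 11 of 25 with a mean log2 of at least 6, or 44% against 33.3%. With 1 replicate left out it was 3 to 11, against 13.4% to 21.1%. Among single genes, ND-B17.2 was 0.023 and 0.0091 and sicily -0.0062 and -0.00086 after quantile normalization and cyclic loess. With 1 array left out, ranges across 0 were -0.55 to 0.015 for ND-13A, -0.29 to 0.17 for ND-15, -0.33 to 0.092 for ND-19, -0.18 to 0.052 for ND-39, -0.22 to 0.058 for ND-51, -0.21 to 0.18 for ND-B17.2, -0.15 to 0.22 for ND-B18, -0.15 to 0.0015 for ND-B22, -0.33 to 0.013 for ND-MNLL, -0.17 to 0.031 for ND-SGDH, -0.029 to 0.047 for sicily, -0.068 to 0.20 for Nubpl and -0.0083 to 0.027 for CG11722. Enigma passed with the replicate block, fixed (adjusted p = 0.000118) or random (adjusted p = 0.00165), at -2.72, and at -2.71, -2.63 and -2.83 with that block without replicate 1, 2 and 3. The cause of these changes was not tested. The arrays hold no probe set for ND-MLRQ alone and the paralogues were not tested, so leaving those genes out changed nothing.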
